A study of Mus musculus with 5 samples.

Results

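Genes for the synthesis of sterols and fatty acids were followed in RNA sequencing of developing mouse retina, as 33 of the 24594 genes in the deposited table. The members were the rows whose symbol stood in a list drawn up by pathway, with 19 genes of the mevalonate and cholesterol pathway, 5 regulators of SREBP (sterol regulatory element-binding protein) and 9 genes of fatty acid synthesis and desaturation. The genes were chosen by pathway with the fold changes of this same comparison between the libraries known, so their differences are a description, and no count or median over them is evidence for a pathway effect. All 33 were found, and all 33 passed the filter on low values, a mean normalised read count of at least 10 over the 5 libraries. Per the labels, newborn pups (postnatal day 0) were electroporated in vivo with a plasmid driving Zfp292, a large nuclear zinc finger protein, or green fluorescent protein (GFP) from CAG, a promoter active in most cell types. After 4 days the retinas were dissociated and GFP-positive cells, called RPC in the labels, were collected by sorting. There were 3 libraries labelled Zfp292-OE and 2 control libraries. The labels give no strain, sex or pooling of animals. They also leave out whether each library had its own animals, so a p-value here reflects the spread among these 5 libraries and that spread may be technical.

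Cholesterol is built in the cytosol and endoplasmic reticulum from acetyl-CoA, through mevalonate, isoprenoid diphosphates and squalene to the sterol ring and its trimming. Fatty acid synthesis starts from the same acetyl-CoA and continues with elongation and desaturation. Both are driven by SREBP factors, which are carried by Scap to the Golgi for cleavage when membrane sterol is low and held back by the Insig proteins when it is high. Srebf2 is best known for sterol genes and Srebf1 for fatty acid genes. Dividing cells need sterols and fatty acids for new membrane, and in the retina Müller glia also make and export cholesterol.

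Reads assigned to genes numbered 114197740 to 135442444 in the libraries labelled Zfp292-OE and 103096224 to 137683716 in the control libraries. Zfp292 itself was not detectably higher in the libraries labelled Zfp292-OE (log2 fold change 0.04, limma adjusted p = 0.87, 0.39 to 0.98 over 15 alternatives), so every direction below is that of the labels. Of 16316 genes tested with limma, 1632 rose (10%) and 1204 fell (7.38%), 17.4% in all, at an adjusted p under 0.05. Over all these genes the log2 fold change had a median of −0.06. With libraries scaled to equal totals that median was −0.27, with 913 genes higher (5.6%) and 1986 lower (12.2%). The deposited values summed to 122890256 to 130286849 in the libraries labelled Zfp292-OE and 106035180 to 112359959 in the control libraries. These totals did not overlap, so fold changes from the deposited values lie above those with equal totals. Leaving out control library 1, and again control library 2, limma called 1 gene of all tested and 0 members, while 12 members (without control library 1) and 11 (without control library 2) had an unadjusted p under 0.05, against 14 with all 5 libraries. Those fits assume that the lone control library varies like the other group. In bulk samples of this kind, a difference in the number of cells of a type and a difference in RNA per cell cannot be told apart.

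In limma, all members that rose were sterol synthesis genes. Of the 33 members, 8 rose, beside 10% of all tested genes, and 1 fell, beside 7.38%, while 24 did not pass. All 8 that rose were among the 19 sterol genes, the 1 that fell was Scap among the 5 regulators, and 0 of the 9 fatty acid genes passed. In edgeR 6 members rose and 1 fell (8.28% and 7.78% of all genes, 16.1% in all), and with equal totals 5 rose and 2 fell (5.6% and 12.2% of all genes, 17.8% in all). In DESeq2 11 members rose and 2 fell (14.2% and 11.2% of all genes, 25.4% in all), and those that passed there but not in limma were the sterol gene Cyp51, the regulators Insig1 and Srebf1 (lower) and the fatty acid gene Scd1. The median log2 fold change was 0.46 over the sterol genes, −0.10 over the regulators and −0.16 over the fatty acid genes. With equal totals the sterol median was 0.24 and the fatty acid median −0.38. Positive fold changes were found for 17 of 19 sterol genes and 2 of 9 fatty acid genes, beside 7614 of 16316 genes tested, but Mvk, Pmvk, Lss, Sc5d, Stard4 and Fads1 were negative with equal totals.

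**Figure D1:**
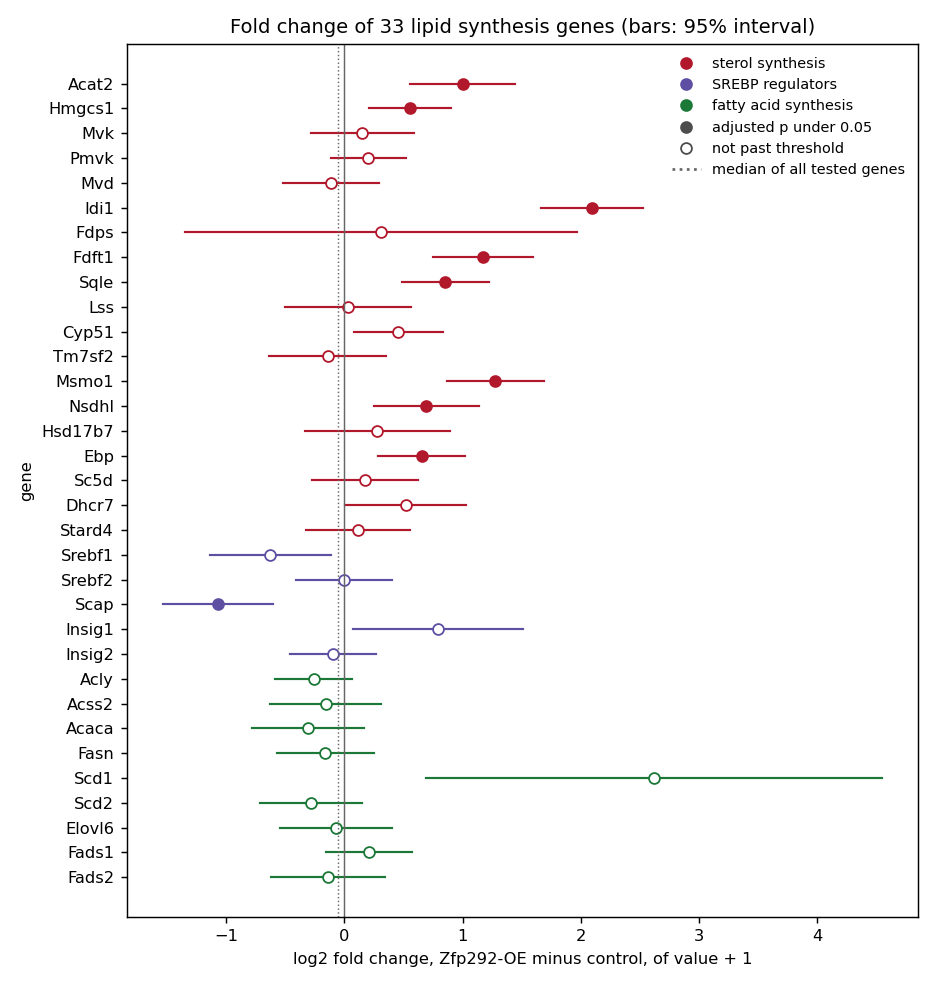
Log2 fold change of each of the 33 genes (libraries labelled Zfp292-OE minus control libraries, of value + 1), in pathway order. Bars are 95% intervals of the limma fit and filled points passed the threshold. The sterol genes reach from −0.14 to 2.10. Except for Scd1, the fatty acid genes lie from −0.31 to 0.20, a range that also holds sterol genes such as Mvk, Lss and Tm7sf2. With equal totals the fatty acid median was −0.38.

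The first steps make mevalonate and turn it into the isoprenoid diphosphates from which sterols are built. Acat2, the cytosolic thiolase that joins acetyl-CoA units, had 22711, 32757 and 25752 normalised reads in the libraries labelled Zfp292-OE, against 15998 and 11212 in the control libraries. The groups did not overlap. Acat2 averaged 27073 ± 5152 in the libraries labelled Zfp292-OE (SD, n = 3) and 13605 ± 3384 in the control libraries (SD, n = 2), and it rose by 0.998 on the log2 scale (SE 0.20, limma adjusted p = 0.0092). Acat2 shares 45.9% of its 50-base words with transcripts of other genes, Acat3 and Tcp1, so its counts are uncertain. Acat3 had 2079, 3294 and 2483 normalised reads in the libraries labelled Zfp292-OE and 1616 and 1084 in the control libraries. Tcp1 had 62211, 65439 and 64390 in the libraries labelled Zfp292-OE and 42269 and 32343 in the control libraries. Both rose, Acat3 by 0.96 and Tcp1 by 0.79 (limma adjusted p = 0.039 and 0.0070). Whether reads of either gene entered the Acat2 count was not tested. Hmgcs1, the cytosolic synthase that makes HMG-CoA, had 8131, 7978 and 7641 normalised reads in the libraries labelled Zfp292-OE, against 5802 and 5021 in the control libraries. Its libraries lay close together within each group, and it rose by 0.55 (SE 0.16, adjusted p = 0.037). This call was lost in edgeR (0.059), with equal totals (0.15), after quantile normalization (0.082), with a replicate block (0.093), and without library 1, 2 or 3 labelled Zfp292-OE (0.098, 0.10 and 0.065), with a range of 0.0034 to 0.18 over 15 alternatives.

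Idi1, the isomerase that interconverts the isoprenoid diphosphates used as building blocks, had the largest change among the sterol genes. It had 54531, 45497 and 41109 normalised reads in the libraries labelled Zfp292-OE, against 13370 and 8921 in the control libraries. Its lowest library labelled Zfp292-OE stood above its highest control library by a wide margin, and Idi1 rose 4.28-fold, or by 2.10 on the log2 scale (SE 0.19, limma adjusted p = 0.00037). Part of the Idi1 transcript (30.5% of its 50-base words) also occurs in other annotated transcripts. The kinases Mvk and Pmvk and the decarboxylase Mvd, which stand between mevalonate and Idi1, did not pass, with log2 fold changes of 0.15, 0.20 and −0.11. Mvd had 2932, 2873 and 2794 normalised reads in the libraries labelled Zfp292-OE, against 3183 and 3008 in the control libraries, so that all 3 lay below both controls. The 95% interval of its log2 difference ran from −0.52 to 0.30. Fdps, the farnesyl diphosphate synthase, was counted at 86.7, 61.1 and 72.2 normalised reads in the libraries labelled Zfp292-OE and 57.8 and 59.3 in the control libraries. Its level is uncertain: 86.4% of its 50-base words occur in transcripts of 8 other genes.

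Fdft1, the squalene synthase and first enzyme committed to sterols, had 21367, 27810 and 20585 normalised reads in the libraries labelled Zfp292-OE, against 12097 and 8676 in the control libraries. It rose by 1.17 on the log2 scale (SE 0.19, limma adjusted p = 0.0035). Its exons overlap those of Ctsb on the opposite strand over 774 bases, and the sources used here do not say whether counting used strand. Ctsb did not pass (log2 fold change −0.21, adjusted p = 0.47, 0.073 to 0.83 over 15 alternatives). Sqle, the squalene epoxidase, an enzyme known to limit the pathway, had 10125, 12661 and 11469 normalised reads in the libraries labelled Zfp292-OE, against 6896 and 5753 in the control libraries. The groups lay apart, with a rise of 0.85 (SE 0.16, adjusted p = 0.0080). Lss, which closes the sterol ring, did not pass: its values of 1448, 1883 and 1597 in the libraries labelled Zfp292-OE overlapped 1477 and 1736 in the control libraries, and the interval of its log2 difference ran from −0.50 to 0.56.

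After ring closure, methyl groups are removed from the sterol and its double bonds are moved or reduced. Msmo1, the oxidase that starts removal of a pair of these methyl groups, had 40619, 36841 and 30568 normalised reads in the libraries labelled Zfp292-OE, against 17614 and 12355 in the control libraries. It rose 2.42-fold (log2 fold change 1.28, SE 0.19, limma adjusted p = 0.0021). Nsdhl, the dehydrogenase that acts with Msmo1, had 14752, 15520 and 14533 normalised reads in the libraries labelled Zfp292-OE, against 11807 and 7245 in the control libraries. The 2 controls were far apart: the rise of 0.69 (SE 0.20, adjusted p = 0.040) was 1.04 without control library 1 and 0.34 without control library 2. It lost its call in edgeR (0.078), with no filter (0.058), with equal totals (0.10), after quantile normalization (0.13), and without library 1, 2 or 3 labelled Zfp292-OE (0.093, 0.088 and 0.072; range over 15 alternatives 0.015 to 0.22). Ebp, the sterol isomerase, had 16756, 16193 and 12736 normalised reads in the libraries labelled Zfp292-OE, against 10247 and 9011 in the control libraries. All 3 stood above both controls, and Ebp rose by 0.65 (SE 0.17, adjusted p = 0.025), though not without library 1 (0.082) or library 2 (0.076) labelled Zfp292-OE, with equal totals (0.075) or after quantile normalization (0.087; range over 15 alternatives 0.0018 to 0.22).

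The other late enzymes did not pass. The demethylase Cyp51 had 5508, 6684 and 6803 normalised reads in the libraries labelled Zfp292-OE, against 4610 and 4578 in the control libraries, with a log2 fold change of 0.46 and a limma adjusted p of 0.092 (0.036 in DESeq2, up to 0.37 over 15 alternatives). The groups did not overlap, as for 49.9% of all tested genes. The last-step reductase Dhcr7 had a value of 0.52 (adjusted p = 0.15), with 8528 normalised reads in library 2 labelled Zfp292-OE 5741 and 5217 in libraries 1 and 3, and 4965 and 3961 in the control libraries. The ketoreductase Hsd17b7, the desaturase Sc5d and the sterol carrier Stard4 had values of 0.28, 0.17 and 0.11, and Tm7sf2, a sterol reductase whose exons overlap those of Vps51 on the same strand over 532 bases, −0.14. In all, the groups did not overlap for 12 sterol genes with the libraries labelled Zfp292-OE above (24.3% of all genes) and for 2 with them below (25.7%). The calls of Idi1, Fdft1, Msmo1, Sqle and Acat2 each held in 13 of 15 alternatives, the exceptions being the fits without control library 1 or 2.

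On GRCm38 the annotation places Acat2 (Entrez 110460) at chr17:12943042-12960725, Hmgcs1 (Entrez 208715) at chr13:119690351-119708260, Idi1 (Entrez 319554) at chr13:8885606-8892396, Fdft1 (Entrez 14137) at chr14:63145150-63181687. It places Sqle (Entrez 20775) at chr15:59315092-59331193, Msmo1 (Entrez 66234) at chr8:64718123-64733578, Nsdhl (Entrez 18194) at chrX:72918521-72958528, Ebp (Entrez 13595) at chrX:8185329-8193512, and Scap (Entrez 235623) at chr9:110333288-110384949.

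**Figure D2:**
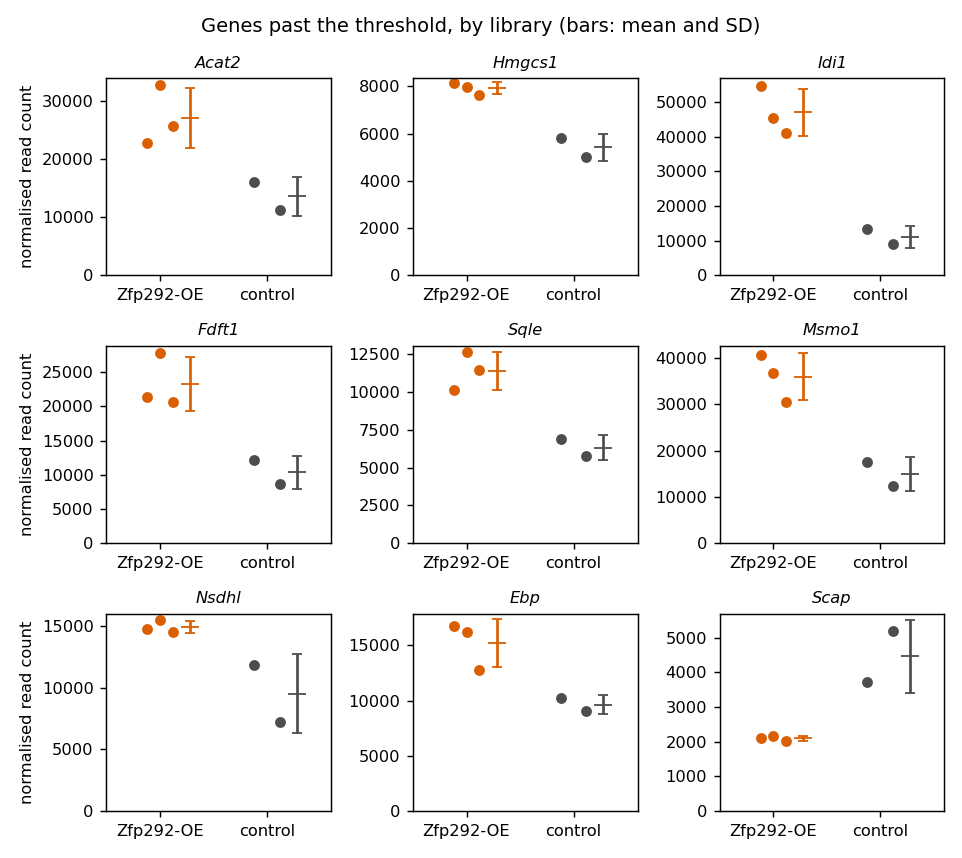
Normalised read counts by library for the 9 genes past the threshold, with the 3 libraries labelled Zfp292-OE left of the 2 control libraries and the mean and SD beside them. In each panel the groups do not overlap, as for 49.9% of all tested genes, and these genes were drawn because they passed. Scap is the single gene with the control libraries on top.

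Promoter sequence was looked at as a feature that played no part in choosing the genes. RefSeq windows on GRCm38.p6, from 250 bases before to 50 bases after a start, were matched for 26 of the 33 genes. The CCAAT box, the site of the factor NF-Y, which is known to act beside SREBP, was searched as CCAAT on both strands. It was present for 14 of 15 sterol genes with a window, 4 of 5 regulators and 3 of 6 fatty acid genes, beside 42.8% of 12815 tested genes with a window. Among the sterol genes, 5 of 6 that rose and 9 of 9 that did not pass carried it, so its presence did not separate them. A core of the sterol regulatory element, searched only as TCACNCCAC on both strands, was matched in Hmgcs1 alone, beside 1.44% of tested genes. Sites with other letters or outside these windows were not searched for, so a gene without a match may still have such an element. The GC box (GGGCGG, both strands) was present for 22 of 26 genes beside 64.3%, and the E-box (CACGTG, which reads the same on both strands) for 5 of 26 beside 11.1%. These matches are descriptions of letters and not measured binding, and some genes have several windows.

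The 6 windows below show the range, from genes that rose to genes that did not, with matches to CCAAT and TCACNCCAC on either strand in capitals and the gene's direction running from left to right. Hmgcs1 carries a match to TCACNCCAC 137 bases before its start and 4 CCAAT boxes. Idi1 and Msmo1 are the sterol genes that rose most, Acat2 rose without a CCAAT box, and Mvd did not pass and carries 2. Fasn is the only fatty acid gene shown and carries 3, while Acaca, Elovl6 and Fads2 carry no CCAAT box in their windows.
Hmgcs1 promoter, chr13:119690101-119690400, plus strand: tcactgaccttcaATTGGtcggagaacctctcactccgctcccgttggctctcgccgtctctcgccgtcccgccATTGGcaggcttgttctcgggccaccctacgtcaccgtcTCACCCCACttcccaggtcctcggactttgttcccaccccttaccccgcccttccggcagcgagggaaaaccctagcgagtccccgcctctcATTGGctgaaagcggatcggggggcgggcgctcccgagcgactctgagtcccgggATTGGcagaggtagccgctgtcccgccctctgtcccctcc
Idi1 promoter, chr13:8885356-8885655, plus strand: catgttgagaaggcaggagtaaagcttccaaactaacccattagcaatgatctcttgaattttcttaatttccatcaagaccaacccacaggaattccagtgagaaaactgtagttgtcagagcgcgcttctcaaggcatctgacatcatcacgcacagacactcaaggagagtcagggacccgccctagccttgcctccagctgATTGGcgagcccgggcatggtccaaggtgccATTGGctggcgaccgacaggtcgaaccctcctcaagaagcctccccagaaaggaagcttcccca
Msmo1 promoter, chr8:64733529-64733828, minus strand: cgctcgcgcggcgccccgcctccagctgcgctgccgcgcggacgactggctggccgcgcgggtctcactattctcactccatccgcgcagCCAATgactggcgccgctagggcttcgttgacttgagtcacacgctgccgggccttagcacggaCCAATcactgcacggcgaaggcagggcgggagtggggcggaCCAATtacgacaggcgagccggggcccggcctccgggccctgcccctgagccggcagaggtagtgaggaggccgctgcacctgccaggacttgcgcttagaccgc
Acat2 promoter, chr17:12960676-12960975, minus strand: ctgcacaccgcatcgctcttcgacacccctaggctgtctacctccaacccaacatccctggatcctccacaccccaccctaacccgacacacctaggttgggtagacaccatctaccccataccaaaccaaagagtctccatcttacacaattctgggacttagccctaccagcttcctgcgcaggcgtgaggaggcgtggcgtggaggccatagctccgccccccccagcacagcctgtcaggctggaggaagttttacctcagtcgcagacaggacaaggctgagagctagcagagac
Mvd promoter, chr8:122443373-122443672, minus strand: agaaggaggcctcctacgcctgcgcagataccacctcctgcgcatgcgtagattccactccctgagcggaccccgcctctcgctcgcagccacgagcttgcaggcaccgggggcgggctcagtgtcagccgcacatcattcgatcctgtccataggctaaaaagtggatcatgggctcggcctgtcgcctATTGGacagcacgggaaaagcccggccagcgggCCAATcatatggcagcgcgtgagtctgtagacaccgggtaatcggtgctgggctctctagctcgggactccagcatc
Fasn promoter, chr11:120824498-120824797, minus strand: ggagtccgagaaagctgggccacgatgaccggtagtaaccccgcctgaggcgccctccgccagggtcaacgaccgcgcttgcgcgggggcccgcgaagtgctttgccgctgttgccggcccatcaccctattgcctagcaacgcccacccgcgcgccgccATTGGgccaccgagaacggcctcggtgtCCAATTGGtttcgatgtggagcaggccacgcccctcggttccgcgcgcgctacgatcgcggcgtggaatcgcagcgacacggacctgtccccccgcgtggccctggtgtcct
The CCAAT boxes of Idi1 lie 45 and 14 bases before the start, and those of Mvd at 60 and 27. In Fasn a pair of boxes on opposite strands overlap, 62 and 59 bases before the start, and a further box lies at 90.

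The regulators of SREBP did not move together. Scap, the escort protein that SREBP needs to leave the endoplasmic reticulum, had 2110, 2163 and 2015 normalised reads in the libraries labelled Zfp292-OE, against 3716 and 5204 in the control libraries. Values lay close together in all 3 labelled Zfp292-OE and farther apart in the controls, and Scap fell by 1.07 on the log2 scale (SE 0.21, limma adjusted p = 0.0085), a call that held in 13 of 15 alternatives and was lost without control library 1 (0.055) or 2 (0.13; lowest adjusted p over the alternatives 1.4e-05). An annotated transcript on the opposite strand overlaps 985 of its exon bases. Srebf1 had 3265, 4005 and 3385 normalised reads in the libraries labelled Zfp292-OE, against 4276 and 6987 in the control libraries. All 3 lay below both controls, with a log2 fold change of −0.63 that missed the threshold (adjusted p = 0.087). It passed in DESeq2 (0.034) and with equal totals (0.039), and the value was −0.98 without control library 1 and −0.27 without control library 2 (range of adjusted p over 15 alternatives 0.034 to 0.47). Srebf2 did not pass, with 5860, 7030 and 5282 normalised reads in the libraries labelled Zfp292-OE and 5523 and 6613 in the control libraries, and the interval of its log2 difference ran from −0.41 to 0.40. Insig1, itself a target of SREBP that retains Scap, varied among the libraries labelled Zfp292-OE. It had 1940 normalised reads in library 1 labelled Zfp292-OE, in the range of the control libraries (1717 and 1950), and 4501 and 3627 in libraries 2 and 3. Its log2 fold change of 0.79 did not pass (adjusted p = 0.12), but did without library 1 labelled Zfp292-OE (0.020) and in DESeq2 (0.042; range over 15 alternatives 0.020 to 0.42). Insig2, which retains Scap as well, had a value of −0.10.

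None of the 9 fatty acid genes passed in limma or edgeR, beside 17.4% and 16.1% of all tested genes in either direction. In DESeq2 1 passed (Scd1), beside 25.4%. An unadjusted p under 0.05 in limma was found for 1, beside 5351 of 16316 genes tested. So few genes cannot show that this group was called less often than others. Fasn, the synthase that builds palmitate, had 8817, 9910 and 9584 normalised reads in the libraries labelled Zfp292-OE, within the range of the control libraries (8651 and 12835). Acly, which supplies cytosolic acetyl-CoA from citrate, had 12245, 10526 and 11418 normalised reads in the libraries labelled Zfp292-OE and 12877 and 14445 in the control libraries, a log2 fold change of −0.26 (adjusted p = 0.25, 0.052 with equal totals, up to 0.51 over 15 alternatives). The 95% interval of the log2 difference ran from −0.57 to 0.25 for Fasn and from −0.59 to 0.06 for Acly. Acss2, which makes acetyl-CoA from acetate, the carboxylase Acaca and the elongase Elovl6 had values of −0.16, −0.31 and −0.07. The Acaca count is uncertain, since 52.6% of its 50-base words occur in another annotated gene. The polyunsaturated fatty acid desaturases Fads1 and Fads2 had values of 0.20 and −0.14.

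The stearoyl-CoA desaturases make monounsaturated fatty acids, and neither passed. Scd2, the main form of brain, had 56599, 51292 and 42018 normalised reads in the libraries labelled Zfp292-OE, against 49578 and 73439 in the control libraries, with a log2 fold change of −0.28 (limma adjusted p = 0.34). Scd1, the main form of liver and fat, had 343, 169 and 116 normalised reads in the libraries labelled Zfp292-OE, against 13.1 and 67.0 in the control libraries. The groups of Scd1 did not overlap, but the log2 fold change of 2.62 (SE 0.87) did not pass (adjusted p = 0.064). It moved to 1.48 without control library 1 and 3.76 without control library 2, and passed with a replicate block (0.035), in DESeq2 (0.040) and after quantile normalization (0.045; up to 0.32 over 15 alternatives). Of the 50-base words of Scd1, 4.66% occur in transcripts of other genes, Scd2 among them, so the low Scd1 values are uncertain.

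The 2 control libraries differed from each other in these genes. Fatty acid genes had lower values in control library 1 than in control library 2 for 9 of 9 genes, by a median of 0.34 on the log2 scale. Sterol genes were higher in control library 1 for 15 of 19, by a median of 0.19. Over all tested genes 8136 of 16316 were higher in control library 1, with a median difference of 0.00. Against the control mean, the sterol median stood at 0.40 (library 1), 0.56 (library 2) and 0.30 (library 3) in those labelled Zfp292-OE, and 0.09 and −0.09 in control libraries 1 and 2. The fatty acid median was −0.12, −0.09 and −0.14 in the libraries labelled Zfp292-OE, inside the range of −0.17 and 0.17 in the control libraries. The difference between the arm medians (sterol minus fatty acid) was therefore 0.62 with all libraries, 0.76 without control library 1 and 0.34 without control library 2. It ranged from 0.60 to 0.67 without 1 library labelled Zfp292-OE. Without control library 2 the fatty acid median was 0.00049. These differences between single libraries have no replicate check.

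**Figure D3:**
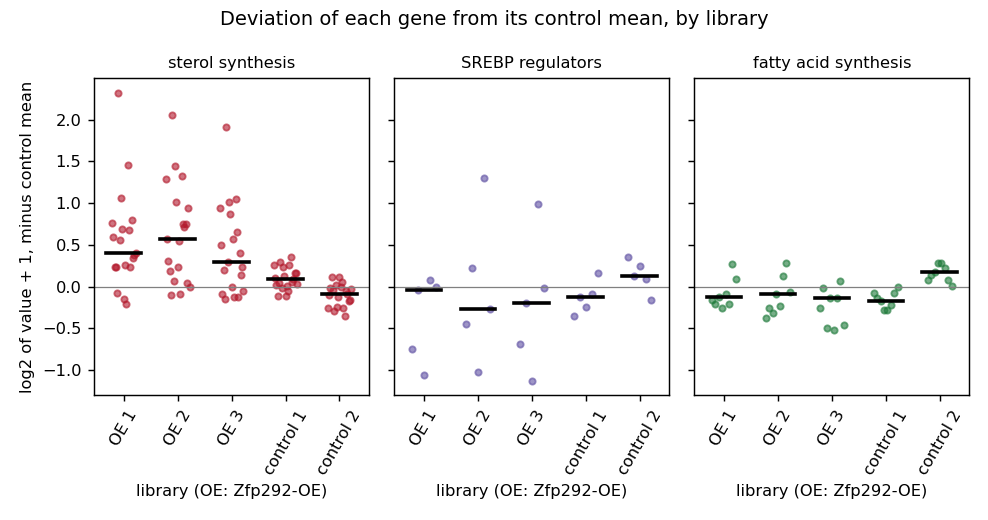
Log2 of value + 1 of each gene minus its control mean, for every library, in the sterol genes, the SREBP regulators and the fatty acid genes. Points are genes (Scd1 lies outside the range and is not drawn) and black lines are medians over all genes of the group. The sterol medians of the libraries labelled Zfp292-OE lie at 0.30 to 0.56, while those of the fatty acid genes lie within the range of the control libraries.

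Levels between genes were compared as normalised reads per kilobase of exon, with the length taken over all annotated GENCODE M21 exons of a gene. That length can far exceed the longest protein-coding transcript. It was 6144 against 2044 bases for Msmo1, 10787 against 4667 for Lss and 3505 against 3027 for Idi1. The levels and ranks below hold for this choice of length and may differ with another. In the libraries labelled Zfp292-OE Idi1 was the most abundant member by this level (13422 per kilobase), and in the control libraries it ranked 7 (3180 per kilobase). Scd2 ranked 3 in the libraries labelled Zfp292-OE (9145 per kilobase) and first in the control libraries (11257 per kilobase). Acat2 and Pmvk stood at 10642 and 8738 per kilobase in the libraries labelled Zfp292-OE, and at 5348 and 7612 in the control libraries. The lowest levels were those of Scd1 (42.8 per kilobase in the libraries labelled Zfp292-OE and 8.18 in the control libraries) and of Fdps (17.4 and 13.9). Sterol enzymes spanned a wide range of levels, and Lss stood at 152 per kilobase in the libraries labelled Zfp292-OE and 149 in the control libraries.

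**Figure D4:**
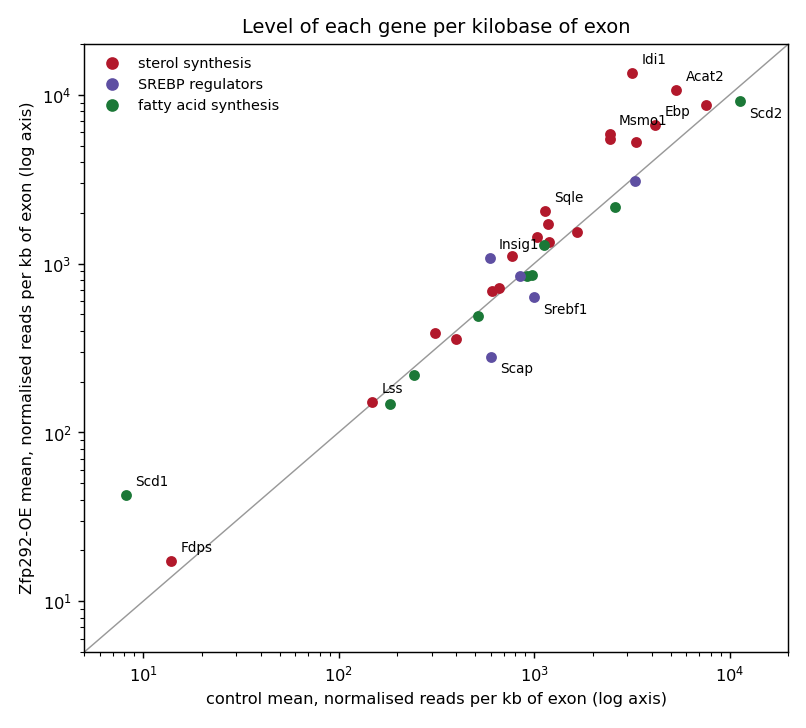
Mean level per kilobase of exon of each gene in the libraries labelled Zfp292-OE (y axis) against the control libraries (x axis), on log axes, with the line of equal levels. Idi1 lies farthest above the line among abundant genes and Scap farthest below, and Scd1 and Fdps lie far below the other genes in level. The Fdps level is uncertain because most of its sequence is shared with other genes.

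Other genes of lipid metabolism were taken as lists by role, to be read beside the 10% of all tested genes that rose and 7.38% that fell in limma, and 5.6% and 12.2% with equal totals. Of 6 genes of sterol efflux and the liver X receptor (LXR), the nuclear receptor of oxysterols, 2 fell (3 with equal totals), 0 rose and 4 were not past the threshold. The efflux pumps Abca1 and Abcg1 fell by 1.82 and 1.17 on the log2 scale (limma adjusted p = 0.0010 and 0.013). Abca1 had 2677, 2090 and 3587 normalised reads in the libraries labelled Zfp292-OE, against 9790 and 9430 in the control libraries. Of 10 genes of sterol storage and transport, 2 rose and 2 fell, with 6 short of the threshold, while 1 rose and 2 fell with equal totals. Lbr, a nuclear envelope protein that carries the same sterol reductase activity as Tm7sf2, rose by 1.53 (adjusted p = 0.0013), and Npc2, the carrier of cholesterol in lysosomes, by 0.52 (adjusted p = 0.022). The lipoprotein receptors Lrp8 and Vldlr fell by 0.59 and 0.68 (adjusted p = 0.028 and 0.035). Npc2, Lrp8 and Vldlr each lost the call in at least 1 fit without a library labelled Zfp292-OE. For Npc2 the adjusted p was 0.060 without library 1 and 0.065 without library 2, for Lrp8 0.10 without library 2 and 0.057 without library 3, and for Vldlr 0.070 without library 1 and 0.10 without library 2. Of 9 genes of SREBP processing and sterol sensing 0 passed in limma and 0 in edgeR, while 2 fell with equal totals, 2 rose and 2 fell in DESeq2, and 4 had an unadjusted p under 0.05 in limma. The smallest p values belonged to Erlin1 (log2 fold change 0.70, limma adjusted p = 0.055, 0.020 to 0.30 over 15 alternatives) and Rnf145 (−0.51, adjusted p = 0.056, 0.016 to 0.28). Of 8 genes of the isoprenoid branch, 0 rose and 1 fell, the methyltransferase of prenylated proteins Icmt (−1.18, adjusted p = 0.0087).

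Among genes that elongate, desaturate or supply fatty acids, 4 of 23 tested fell (beside 7.38% of all genes) and 0 rose, with 19 short of the threshold. The number that fell was 3 in edgeR (beside 7.78%) and 6 with equal totals (beside 12.2%). The cytosolic malic enzyme Me1, a source of NADPH, fell by 1.22 (limma adjusted p = 0.0063), Elovl2, the elongase of very long polyunsaturated chains, by 1.02 (0.0078), and the acyl-CoA synthetases Acsl1 and Acsl6 by 0.86 and 0.69 (0.032 and 0.046). Acsl1 and Acsl6 lost the call without library 1 (0.095 and 0.12) or library 2 (0.078 and 0.070) labelled Zfp292-OE. Among genes of fatty acid oxidation, the dehydrogenase Acadl rose by 1.75 (adjusted p = 0.0015), with 3320, 3277 and 2382 normalised reads in the libraries labelled Zfp292-OE, against 894 and 859 in the control libraries. The carnitine palmitoyltransferase Cpt1a fell by 1.33 (adjusted p = 0.021), a call that held in 12 of 15 alternatives and was just lost without library 1 labelled Zfp292-OE (0.05001). The receptor Ppara fell to 17.1, 23.5 and 1.05 normalised reads in the libraries labelled Zfp292-OE, against 336 and 116 in the control libraries (adjusted p = 0.045). This call held in 6 of 15 alternatives (0.0044 to 0.29) and was lost in edgeR (0.051) and without library 1 labelled Zfp292-OE (0.067), among others. Each call named from these lists was lost without control library 1, and again without control library 2.

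Markers of dividing cells and of differentiated cells also differed between these groups of libraries, as did 17.4% of all tested genes in limma. In this design all genes that differ do so between the same libraries, so the shared difference does not link them to the sterol genes. All 8 of 8 G2/M genes were higher (median log2 fold change 2.64), with a summed level of 147241 to 290821 normalised reads in the libraries labelled Zfp292-OE and 32087 to 38075 in the control libraries. All 8 of 8 rod genes were lower (−1.91), summing to 150892 to 166405 in the libraries labelled Zfp292-OE and 576192 to 699943 in the control libraries. Of 8 genes of Müller glia, which make and export cholesterol, 1 was higher (0 with equal totals) and 5 lower. The higher gene was Glul (log2 fold change 0.63, limma adjusted p = 0.012), while Dkk3 (−0.0047) and Aqp4 (−1.01) did not pass. The 8 genes summed to 328180 to 407594 in the libraries labelled Zfp292-OE, against 658411 to 802067 in the control libraries. Apoe alone gave 145406 to 196272 of this sum in the libraries labelled Zfp292-OE and 367626 to 479410 in the control libraries. Of 6 tested astrocyte genes 0 were higher and 4 lower (15031 to 28672, against 55573 to 64235 in the control libraries). Their part in the differences of the lipid genes was not tested. Between the control libraries, 6 of 8 G2/M genes and 7 of 8 rod genes were higher in library 1, and 2 of 8 genes of Müller glia.

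Cell types that arise outside the neural retina were checked by their markers too. Pericyte genes summed to 162 to 378 normalised reads in the libraries labelled Zfp292-OE and 1025 to 2481 in the control libraries, with 3 of 4 tested genes lower. Microglial genes summed to 298 to 1884 in the libraries labelled Zfp292-OE and 1794 to 4607 in the control libraries, with 0 of 6 past the threshold. Genes of the retinal pigment epithelium summed to 460 to 917 in the libraries labelled Zfp292-OE and 177 to 371 in the control libraries, with 0 of 4 tested past the threshold. Of 5 tested endothelial genes 1, Cldn5, was higher (sum 34948 to 43888 in the libraries labelled Zfp292-OE and 40253 to 48681 in the control libraries, most of it Kdr). Of 3 tested oligodendrocyte genes 0 passed (2359 to 3153 and 2282 to 3684). The defining markers Cdh5, Rpe65 and Sox10 were at or near 0 in all 5 libraries. The part of these cells in the differences of the lipid genes was not tested.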

How the data were processed

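Sorted retinal cells gave 5 libraries, and per the labels' protocols a SMARTER mRNA kit was used on 1.3 µg of RNA each. Genome builds GRCm38 and mm10 are named in the submitters' processing notes. Aligner, counter, annotation, scaling method and strand use: not given in the sources used here. Each library's column in the deposited table is a signal, its gene counts over a single factor. In each library 100% of values were whole multiples of the smallest value above 0 (tolerance 1e-06), and whole reads were recovered from these steps.

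Genes with a mean of at least 10 entered a limma fit (version 3.58.1 under R 4.3.3, with a mean-variance trend) of log2(value + 1), Zfp292-OE over control, with Benjamini-Hochberg adjustment over all tested genes and a threshold of 0.05. Fold changes are on this scale and understate the change of low genes. The members and lists were chosen with earlier results of these data known. All 33 members are named. Of each related list, up to 4 genes past the threshold with the smallest p are named, or 2 where none passed; 1 result, and the count of its list, is not reported here. Acat3, Tcp1, Ctsb, Vps51, Cldn5, Kdr, Cdh5, Rpe65 and Sox10 were added after their values were seen. Shared words are 50-base stretches of the longest GENCODE M21 transcript found in transcripts of other genes. Coordinates and promoters come from RefSeq GRCm38.p6. Other settings tried were edgeR 4.0.16 and DESeq2 1.42.0 on the whole reads, TMM scaling, equal totals, quantile normalization, a pseudocount of 0.5 or 10, a mean of at least 50 or no filter, the replicate number as a block, and fits without each library in turn. The fit was also run on simulated data with a far smaller share of changed genes than was called here, and no result above rests on that run. Plots used Python 3.11.15.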

Additional observations from a re-analysis of the deposited data

How the results depend on the processing

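Over 15 alternatives, the 9 genes that passed kept call and direction in 99 fits, lost the call in 36 and changed direction in 0; each lost its call without control library 1 and again without control library 2. With equal totals 5 members rose and 2 fell, with a sterol median of 0.24 and a fatty acid median of −0.38, and in DESeq2 11 rose and 2 fell. Leaving out 1 library gave 0 to 6 members higher and 0 to 1 lower, the fewest without a control library and 5 higher without library 2 labelled Zfp292-OE. In these fits the sterol median ranged from 0.34 to 0.53, the fatty acid median from −0.30 to 0.00049 and their difference from 0.34 to 0.76. The causes were not tested.

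Among members that did not pass, 8 fits passed and 22 changed sign. With equal totals Mvk was −0.065, Pmvk −0.013, Lss −0.19, Sc5d −0.043, Stard4 −0.10 and Fads1 −0.012. After TMM scaling Lss was −0.00024, and after quantile normalization Pmvk was −0.055 and Tm7sf2 0.0059. Over the fits without 1 library, Lss ranged from −0.088 to 0.14, Stard4 from −0.032 to 0.20, Srebf2 from −0.14 to 0.12 and Insig2 from −0.26 to 0.063. Fasn ranged from −0.45 to 0.12, Scd2 from −0.57 to 0.00049, Elovl6 from −0.29 to 0.15 and Fads2 from −0.26 to 0.016.

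The labels number libraries in each group, but nothing says that a number marks a shared litter or day. The deviations of same-numbered libraries from their group means had correlations of −0.04 and −0.03 over 16316 genes. With 2 control libraries their deviations are mirror images of each other, so these correlations cannot tell whether same-numbered libraries belong together. With the number as a replicate block 8 members rose and 1 fell, the sterol median was 0.48, the fatty acid median −0.16 and their difference 0.64, while Srebf2 was 0.087 and Fads2 0.016. Hmgcs1 lost its call there (adjusted p = 0.093) and Scd1 gained one (0.035). At these depths every member except Scd1 and Fdps had over 1000 normalised reads in each library.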
